A study of Homo sapiens with 9 samples.

Results

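The mRNA levels of 4 cell cycle kinases (CDK1, CDK2, CDK4 and CDK6) and 6 of their cyclin partners (CCNA2, CCNB1, CCNB2, CCND3, CCNE1 and CCNE2) were followed in FaDu cells in which CDK7 was inhibited. The genes were chosen by name from the kinases that the CDK7 complex activates and the cyclins that bind them. They were 10 of the 58929 genes in the deposited count table, and all 10 were among the 16065 genes that passed the filter on low counts. FaDu is an established human line of head and neck squamous cell carcinoma (HNSCC), labelled wild type, and the 9 libraries came from cells that received either DMSO as the vehicle or 1 of 2 CDK7 inhibitors, samuraciclib and YKL-5-124, each at 250 nM. Each group had 3 libraries. Samuraciclib is an ATP-competitive inhibitor of CDK7 and YKL-5-124 a covalent one, and no group carries a genetic change that the others lack. The exposure was 48 h by the treatment protocol and the methods, while the series design text gives 72 h. All comparisons are within 1 cell line, and the methods call the samples of a condition biological replicates without saying whether they came from separate cultures, so the p-values measure the spread between these libraries.

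CDK7, with cyclin H and MAT1, forms the CDK-activating kinase, which phosphorylates the T-loop of the cell cycle CDKs and also the C-terminal domain of RNA polymerase II. A CDK becomes active only with a cyclin bound. D cyclins with CDK4 or CDK6 act in G1 and phosphorylate the retinoblastoma protein, E cyclins with CDK2 act at the entry to S phase, cyclin A2 acts with CDK2 in S phase and with CDK1 later, and B cyclins with CDK1 drive mitosis. T-loop phosphorylation is a change of protein, so the values here say nothing of kinase activity. They measure mRNA, and cannot tell fewer cells in the phase that transcribes a gene from less mRNA in every cell.

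Libraries held between 18096180 and 28018126 counts. The 10 genes together took 0.137% to 0.142% of them in DMSO, 0.110% to 0.114% in samuraciclib and 0.114% to 0.120% in YKL-5-124. All 6 squamous epithelial markers looked at were above 1 CPM (counts scaled to the size of the library) in every library, with a summed level of 4867 to 5124 CPM in DMSO, 5752 to 6006 in samuraciclib and 5179 to 5536 in YKL-5-124. KRT5 was lower in both inhibitor groups (2519 to 2694 CPM in DMSO, 2283 to 2395 in samuraciclib, 1763 to 1927 in YKL-5-124). KRT17 (1744 to 1804, 2640 to 2793 and 2625 to 2817), TP63 and CDH1 were higher in both. KRT14 and EPCAM were higher in samuraciclib and lower in YKL-5-124 than in DMSO. Of the markers of other cell types, 0 of 4 leukocyte genes reached 1 CPM in all libraries of a group, 1 of 4 fibroblast genes did (COL1A1, while DCN was at 0 in 2 groups) and so did 1 of 3 endothelial genes (CDH5, at 29.2 to 31.0 CPM in DMSO, 18.7 to 23.0 in samuraciclib and 24.8 to 27.6 in YKL-5-124, while PECAM1 did not pass 0.206). The summed endothelial level was 29.99 to 32.1 CPM in DMSO, 20.0 to 23.8 in samuraciclib and 25.5 to 28.4 in YKL-5-124, and its part in the results was not tested. One library of each group was low in the 7SL RNA RN7SL2 (24.9 to 59.3 CPM, against 696 to 981 in the other 6). The share of counts on genes for cytosolic ribosomal proteins was 5.76% to 6.17% in DMSO, 4.15% to 4.48% in samuraciclib and 3.09% to 3.36% in YKL-5-124.

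Levels were compared between genes per kilobase of the deposited gene length, as CPM per kilobase (FPKM). CCNB1, the main mitotic cyclin, was the most abundant of the 10 in DMSO, at 172 ± 5.75 FPKM (SD, n = 3), 2.94 times CDK4. CDK4, a G1 kinase, followed at 58.7 ± 3.80. Below it stood CDK1 at 51.5 ± 1.11, CCNB2 at 50.5 ± 0.659 and CCNA2 at 49.4 ± 1.87. Neighbours among these 3 overlapped in range and were not ordered beyond their spread. CDK2 was at 32.1 ± 0.292 FPKM, CCND3 at 11.5 ± 0.233 and CDK6, whose deposited length is 12260 bases, at 10.5 ± 0.631. The E cyclins were lowest, CCNE1 at 6.83 ± 0.187 and CCNE2 at 3.27 ± 0.482 FPKM. Each of these steps from CCNA2 down separated the DMSO libraries without overlap.

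**Figure D1:**
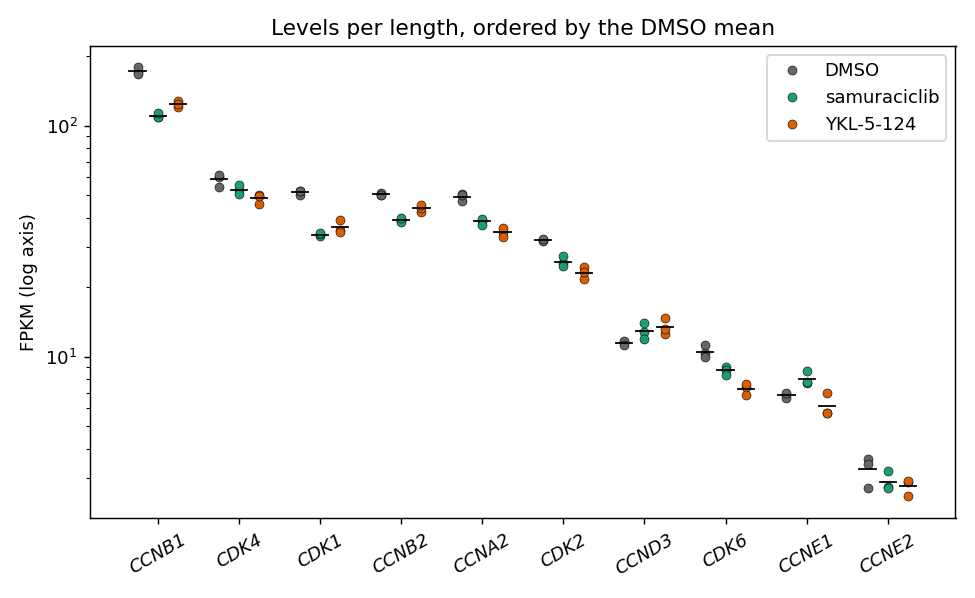
Level of each gene per length in FPKM on a log axis, ordered by the DMSO mean. Each point is 1 library (3 per group) and short lines mark group means; CCNB1 was highest and CCNE2 lowest in all 3 groups, with DMSO means of 172 and 3.27 FPKM.

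The order changed in the middle under either inhibitor. In samuraciclib, CDK1 stood below CCNB2 and CCNA2, at 33.8 ± 0.526 FPKM. CCNB2 at 39.0 ± 0.737 and CCNA2 at 38.6 ± 1.20 overlapped each other. With YKL-5-124, CCNB2 came next after CDK4 at 44.0 ± 1.46 FPKM, apart from CDK1 at 36.4 ± 2.46 and CCNA2 at 34.6 ± 1.54, which overlapped. CDK6 and CCNE1, separate in DMSO, overlapped in both inhibitor groups: 8.74 ± 0.324 against 8.05 ± 0.536 FPKM in samuraciclib and 7.29 ± 0.381 against 6.13 ± 0.743 in YKL-5-124. CCNB1 kept the first place, at 110 ± 2.71 and 124 ± 3.30 FPKM, and CCNE2 the last, at 2.88 ± 0.281 and 2.76 ± 0.232.

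Changes between groups were tested with 1 fit of edgeR's quasi-likelihood test over all 16065 genes and 9 libraries, with Benjamini-Hochberg adjustment. A gene is said here to rise or fall where its adjusted p was below 0.05, and to be called where its log2 fold change was also beyond 0.5 in size, the threshold the study used. Both inhibitor groups were compared with the same 3 DMSO libraries, so their values stand side by side and their likeness is no separate result. Values below are scaled CPM for libraries 1, 2 and 3 of a group, and each ± after a log2 fold change is its standard error.

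The mitotic set comprises CDK1 (chr10:60778331-60794852 on GRCh38, plus strand), the kinase of mitotic entry, and its partners cyclin B1 (CCNB1, chr5:69167010-69178245, plus strand) and cyclin B2 (CCNB2, chr15:59105078-59125045, plus strand). CDK1 was at 197, 205 and 205 CPM in DMSO, 131, 133 and 135 in samuraciclib and 139, 154 and 136 in YKL-5-124. Every inhibitor library lay below every DMSO library, and samuraciclib lay below YKL-5-124 throughout. Its log2 fold change against DMSO was -0.61 ± 0.049 with samuraciclib (adjusted p = 1.82e-08), a call, and -0.50 ± 0.049 with YKL-5-124 (adjusted p = 1.43e-07), a fall of 29.2% that ended just short of the fold threshold at -0.498. The YKL-5-124 change of CDK1 narrowly passed that threshold with the size factors of DESeq2 (log2 fold change -0.50 as well). It also passed without the libraries low in 7SL RNA (-0.55), without YKL-5-124 library 2 alone (-0.56) and without DMSO library 1 alone (-0.52). Other settings took it further from the threshold: the value ran to -0.46 with a library left out and to -0.37 over 18 alternative settings.

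CCNB1 was at 436, 458 and 429 CPM in DMSO, 278, 279 and 291 in samuraciclib and 310, 327 and 318 in YKL-5-124. The 3 groups did not overlap, with samuraciclib lowest. CCNB1 fell by 35.9% with samuraciclib, the largest change of the 10 in either inhibitor comparison (log2 fold change -0.64 ± 0.047, adjusted p = 4.78e-09, called), and by 27.8% with YKL-5-124 (-0.47 ± 0.046, not called). CCNB2, the B cyclin associated with the Golgi, was at 141, 144 and 140 CPM in DMSO, 108, 108 and 112 in samuraciclib and 119, 124 and 127 in YKL-5-124. Groups again did not overlap and stood in the same order. CCNB2 fell with both, at log2 fold changes of -0.37 ± 0.045 and -0.20 ± 0.044, and without trimmed-mean scaling its YKL-5-124 value was -0.07 and no longer passed (adjusted p = 0.187).

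**Figure D2:**
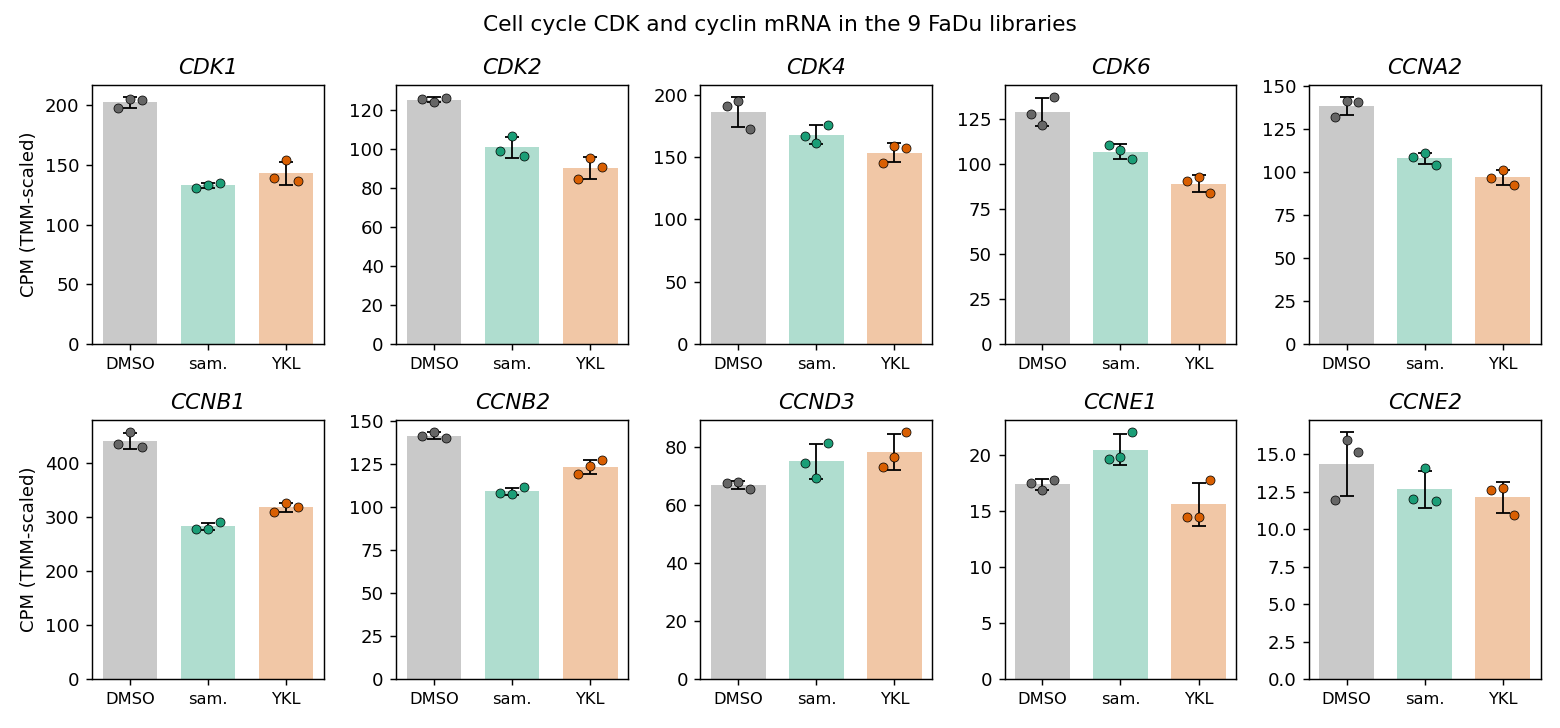
Scaled CPM of each of the 10 genes by group, on axes that start at 0. Bars are group means, error bars SD and points the 3 libraries (sam., samuraciclib; YKL, YKL-5-124); CDK1, CDK2, CDK6, CCNA2, CCNB1 and CCNB2 were below DMSO in all 6 inhibitor libraries, and CCND3 was above it in all 6.

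The promoter letters of the mitotic genes and CCNA2 are shown because they hold CCAAT boxes, which late cell cycle promoters are known for. CCND3, which rose, held CCAAT too, and CDK4 and CDK6, which fell, held none of the motifs searched. Sequences are the RefSeq windows (GRCh38.p14, 250 bases before to 50 after an annotated start), which held an entry for 8 of the 10 genes. Capitals mark the CCAAT box, the letters bound by NF-Y (CCAAT, or ATTGG where the box is on the other strand), and the cell cycle homology region (CHR) in its TTTGAA form (or TTCAAA), through which the MuvB complexes bind many late cell cycle genes. CDK1 has 2 windows, and the one with more of these matches is printed.
CDK1, chr10:60778228-60778527, plus strand: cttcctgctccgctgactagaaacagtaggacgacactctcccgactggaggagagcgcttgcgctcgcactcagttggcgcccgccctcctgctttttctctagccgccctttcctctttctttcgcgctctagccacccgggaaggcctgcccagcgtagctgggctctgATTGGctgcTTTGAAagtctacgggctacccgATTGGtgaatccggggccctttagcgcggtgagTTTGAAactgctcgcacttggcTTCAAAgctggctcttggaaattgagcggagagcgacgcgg
CCNB1, chr5:69166900-69167199, plus strand: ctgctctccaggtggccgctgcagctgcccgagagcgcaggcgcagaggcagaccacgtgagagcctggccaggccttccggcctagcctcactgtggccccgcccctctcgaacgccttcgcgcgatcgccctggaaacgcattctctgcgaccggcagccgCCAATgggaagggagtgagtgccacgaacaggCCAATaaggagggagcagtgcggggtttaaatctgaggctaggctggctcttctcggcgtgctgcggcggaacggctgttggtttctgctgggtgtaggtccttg
CCNB2, chr15:59104896-59105195, plus strand: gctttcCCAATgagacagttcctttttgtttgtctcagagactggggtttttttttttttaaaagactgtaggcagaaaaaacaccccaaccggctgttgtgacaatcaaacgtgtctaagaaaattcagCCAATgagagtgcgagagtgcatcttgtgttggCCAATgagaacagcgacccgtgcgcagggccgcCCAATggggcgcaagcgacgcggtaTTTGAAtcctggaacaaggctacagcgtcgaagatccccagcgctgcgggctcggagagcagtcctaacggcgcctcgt
CCNA2, chr4:121823834-121824133, minus strand: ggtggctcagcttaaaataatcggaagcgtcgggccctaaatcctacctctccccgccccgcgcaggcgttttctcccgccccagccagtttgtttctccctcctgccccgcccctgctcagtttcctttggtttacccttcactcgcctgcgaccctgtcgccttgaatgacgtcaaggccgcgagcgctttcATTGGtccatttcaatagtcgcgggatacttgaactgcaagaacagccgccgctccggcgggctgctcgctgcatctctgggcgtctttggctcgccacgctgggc
The 8 genes had 12 windows. CCAAT was found on either strand in 7 of the 12, in 5 genes (CDK1, CCNA2, CCNB1, CCNB2 and CCND3), against 34.6% of all 35116 windows, whatever the gene. Positions are counted from the start annotated for each printed window, which lies inside the span given here for its gene. In the CDK1 window shown, the 2 boxes began 78 and 46 bases before that start, 32 bases apart. The pair in CCNB1 was also 32 bases apart, at 87 and 55 bases before the start, and the last 3 boxes of CCNB2 were 33 bases apart, at 120, 87 and 54 bases before it. CCNA2 held 1 box, 56 bases before the start. TTTGAA was present in 3 of the 12 windows, those of CDK1 and CCNB2 (15.2% of all windows). TTTAAA, another form of the region, was present in 4 of 12, of CDK1, CCNB1, CCNB2 and CCNE1 (12.2%). The E2F letters searched, TTTCCCGC, TTTCGCGC, TTTGCCGC and TTTGGCGC, were found in 2 of 12, both of CDK1 (3.31%). The CDK1 windows overlap, and the same E2F site is counted in each of them. These matches are letters in a window and do not show that a factor was bound.

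The S phase set comprises CDK2 (chr12:55966769-55972784, plus strand) and cyclins A2 and E. CDK2 was at 125, 124 and 126 CPM in DMSO, 98.8, 107 and 96.4 in samuraciclib and 84.5, 95.5 and 90.5 in YKL-5-124. All 6 inhibitor libraries were below DMSO, and the groups given the inhibitors did not overlap. CDK2 fell in both comparisons without being called, with a log2 fold change of -0.47 ± 0.053 for YKL-5-124 and -0.31 ± 0.053 for samuraciclib. Cyclin A2, CCNA2 (chr4:121816444-121823933, minus strand), was at 132, 142 and 141 CPM in DMSO, 109, 111 and 104 in samuraciclib and 96.8, 101 and 92.6 in YKL-5-124. Its 3 groups did not overlap, and here YKL-5-124 was lowest. CCNA2 fell by 29.9% with YKL-5-124 (-0.51 ± 0.050, adjusted p = 1.22e-07, called) and by 21.9% with samuraciclib (-0.36 ± 0.049, not called). The YKL-5-124 call of CCNA2 rested on a value close to the threshold and was lost without DMSO library 2 or 3 or without YKL-5-124 library 3, where it came to -0.48. It was also lost with library size alone (-0.38), with a mean count of at least 50 (-0.48) and when the fold threshold itself was tested with glmTreat.

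The E cyclins were the least abundant and the least precise of the 10. CCNE1 (chr19:29811898-29824308, plus strand), which activates CDK2 at the end of G1, was at 17.5, 16.9 and 17.8 CPM in DMSO, 19.7, 19.8 and 22.1 in samuraciclib and 14.5, 14.5 and 17.8 in YKL-5-124. Samuraciclib libraries were all above DMSO, whereas 1 YKL-5-124 library lay within the DMSO range. CCNE1 rose with samuraciclib (0.24 ± 0.092, adjusted p = 0.0460), a result that missed the threshold in 8 of 18 alternative settings, and its YKL-5-124 value was -0.16 ± 0.094 (adjusted p = 0.172). CCNE2, its paralogue on chromosome 8, had 209 to 402 counts per library and was at 11.96, 16.0 and 15.1 CPM in DMSO, 12.03, 14.1 and 11.9 in samuraciclib and 12.6, 12.8 and 10.9 in YKL-5-124. Its groups overlapped in every comparison. The log2 fold change of CCNE2 was -0.25 for YKL-5-124 (95% interval -0.49 to -0.01, adjusted p = 0.0806) and -0.19 for samuraciclib (-0.43 to 0.05, adjusted p = 0.201). Neither change passed the test, and the intervals do not show that the level stayed the same.

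The G1 set comprises CDK4 (chr12:57747727-57756013, minus strand), CDK6 (chr7:92604921-92836594, minus strand) and cyclin D3, CCND3 (chr6:41934933-42050357, minus strand). CDK4 was at 191, 195 and 172 CPM in DMSO, 167, 161 and 176 in samuraciclib and 145, 158 and 157 in YKL-5-124. YKL-5-124 was below every DMSO library, while samuraciclib lay above YKL-5-124 and overlapped DMSO. CDK4 fell with YKL-5-124 (-0.27 ± 0.054, adjusted p = 0.000372) and with samuraciclib (-0.15 ± 0.054, adjusted p = 0.0355), a value that stayed below 0.05 in 12 of 18 alternative settings. CDK6 was at 128, 122 and 137 CPM in DMSO, 111, 108 and 103 in samuraciclib and 90.8, 93.2 and 84.2 in YKL-5-124. The groups did not overlap, DMSO being highest and YKL-5-124 lowest. CDK6 fell by 30.8% with YKL-5-124, the largest of that comparison's changes among the 10 (-0.53 ± 0.055, adjusted p = 2.96e-07, called), and by 17.0% with samuraciclib (-0.27 ± 0.055, not called). Without DMSO library 3 the YKL-5-124 value was -0.48, and without YKL-5-124 library 3 it was -0.49, both short of the fold threshold. The CDK6 call was also lost with library size alone (-0.40), with a mean count of at least 50 (-0.49) and with glmTreat.

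CCND3, a partner of CDK4 and CDK6, ran the other way. It was at 67.6, 67.9 and 65.4 CPM in DMSO, 74.6, 69.5 and 81.5 in samuraciclib and 73.2, 76.5 and 85.2 in YKL-5-124. All 6 inhibitor libraries were above all 3 DMSO libraries, and the inhibitor groups overlapped each other. CCND3 rose with YKL-5-124 (0.23 ± 0.064, adjusted p = 0.00704) and with samuraciclib (0.17 ± 0.065, adjusted p = 0.0436), in the latter comparison in 13 of 18 alternative settings, and it was called in neither.

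Counted together, 8 of the 10 genes passed an adjusted p of 0.05 with YKL-5-124, where 49.3% of all genes tested did: 7 fell (25.2% of all genes) and 1 rose (24.1%). With samuraciclib 9 of 10 passed, where 44.1% of all genes did: 7 fell (23.1%) and 2 rose (21%). Fewer were large. Under both thresholds 2 of 10 were called with YKL-5-124, CDK6 and CCNA2, both lower (21.8% of all genes in either direction, 9.93% lower and 11.9% higher). With samuraciclib 2 of 10 were called, CDK1 and CCNB1, both lower too (17.7% in either direction, 9.55% lower and 8.17% higher). A share of 2 in 10 in either direction is near that background. Without the 3 libraries low in 7SL RNA, 5 of 10 were called with YKL-5-124, CDK1, CDK2 and CCNB1 being added, all of them lower. In that setting 1566 of all 16111 genes tested were called lower and 1691 higher. With YKL-5-124, 0 of 10 were called with library size alone, with a mean count of at least 50, with glmTreat, or without DMSO library 3 or YKL-5-124 library 3. With samuraciclib, glmTreat left 1 of the 10 called, and 982 of all 16065 genes. Groups did not overlap for 8 of 10 genes in either comparison, against 56.8% and 52.9% of all genes. The median log2 fold change over the 10 was -0.37 with YKL-5-124 and -0.29 with samuraciclib. The medians of all genes were 0.01 and 0.00, but the scaling places most genes near 0, so these are no separate result. Scaled by library size alone, the median of all genes moved to 0.14 and 0.06, and each of the 10 kept its sign against DMSO. Every scaling used is relative to the other mRNAs of a library, so a change shared by all mRNAs would not show.

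**Figure D3:**
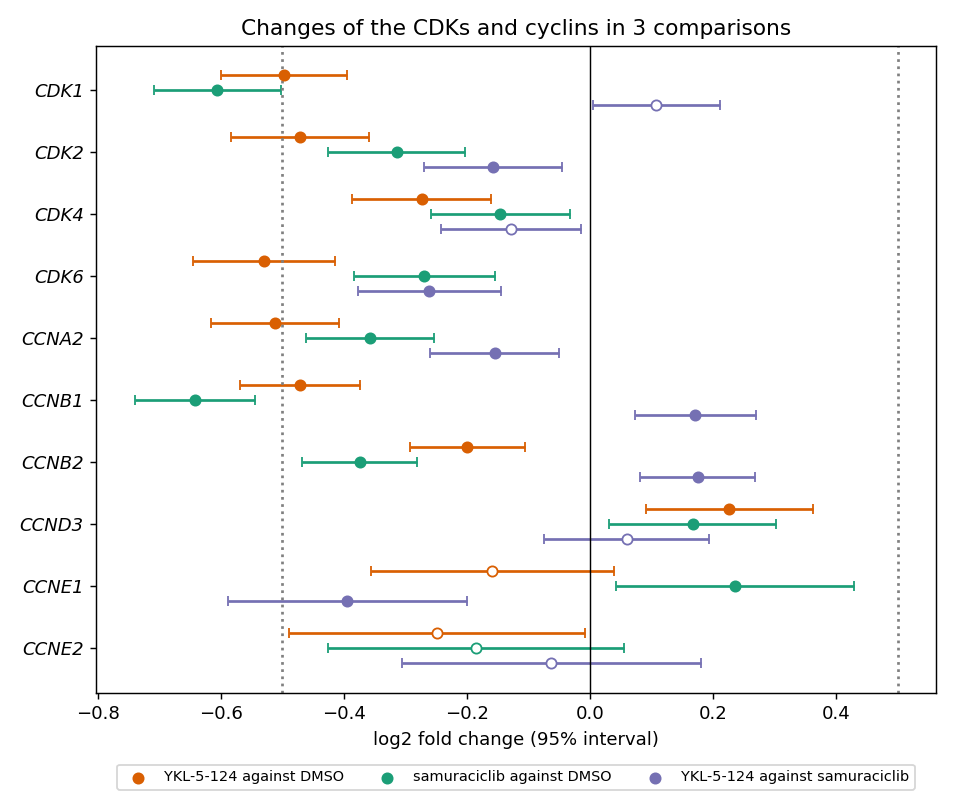
Log2 fold change of each gene in the 3 comparisons, with 95% intervals from the edgeR fit; filled points had an adjusted p below 0.05 and dotted lines mark the fold threshold of 0.5. CCNB1 and CDK1 lay farthest left with samuraciclib (-0.64 and -0.61), CDK6 and CCNA2 with YKL-5-124 (-0.53 and -0.51), and CCND3 lay right of 0 with both.

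Set directly against each other, at the same dose, the inhibitors differed in 6 of the 10 genes at an adjusted p below 0.05 (background 24.9%), 2 of them higher (11.8%) and 4 lower (13.2%) with YKL-5-124. None of the 10 passed the fold threshold as well (background 6.92%), by edgeR or by DESeq2. The inhibitor groups did not overlap for 8 of 10 genes, against 38.7% of all genes. The mitotic cyclins were higher with YKL-5-124: CCNB1 by a log2 of 0.17 ± 0.047 (adjusted p = 0.0119) and CCNB2 by 0.17 ± 0.045 (adjusted p = 0.00798). CCNE1 was lower with YKL-5-124, at -0.39 ± 0.093 (adjusted p = 0.00464), the widest gap among the 10. CDK6 was lower too, at -0.26 ± 0.055 (adjusted p = 0.00219). The CDK6, CCNB2 and CCNE1 differences stayed below 0.05 in all 19 alternative settings and that of CCNB1 in 17. CCNA2 (-0.16 ± 0.050, adjusted p = 0.0296) and CDK2 (-0.16 ± 0.054, adjusted p = 0.0390) were lower as well, but kept an adjusted p below 0.05 in 14 and 10 of 19 settings. For CDK1 the difference was 0.11 (95% interval 0.00 to 0.21, adjusted p = 0.120), for CDK4 -0.13 (-0.24 to -0.01, adjusted p = 0.0923), for CCND3 0.06 (-0.07 to 0.19) and for CCNE2 -0.06 (-0.31 to 0.18). With the replicate number as a block in a fit of the inhibitor libraries alone, CDK1 (adjusted p = 0.0337) and CDK4 (adjusted p = 0.0104) also passed 0.05.

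Ratios of paired genes within a library do not depend on how the library is scaled. The ratio of CCNB2 to CCNB1 per length was 0.295, 0.286 and 0.298 in DMSO, 0.355, 0.353 and 0.351 in samuraciclib and 0.351, 0.346 and 0.365 in YKL-5-124. Both inhibitors stood above DMSO without overlap and overlapped each other, with CCNB2 gaining on CCNB1 by a log2 of 0.27 in either case. CDK2 to CDK1 was 0.642, 0.610 and 0.622 in DMSO, 0.763, 0.809 and 0.721 in samuraciclib and 0.613, 0.625 and 0.671 in YKL-5-124. Only samuraciclib stood apart here, above DMSO by a log2 of 0.29 and above YKL-5-124, which lay 0.26 below it. For CDK6 to CDK4 the range was 0.162 to 0.206 in DMSO, 0.151 to 0.173 in samuraciclib and 0.138 to 0.162 in YKL-5-124, where DMSO and YKL-5-124 just failed to overlap. CCND3 to CCND1 was 0.0391, 0.0378 and 0.0355 in DMSO, 0.0439, 0.0398 and 0.0504 in samuraciclib and 0.0424, 0.0427 and 0.0513 in YKL-5-124, higher than DMSO in all 6 inhibitor libraries. CCNE2 to CCNE1 overlapped in every comparison, with group means of 0.475 in DMSO, 0.357 in samuraciclib and 0.451 in YKL-5-124. Of the 15 tests of 5 ratios in 3 comparisons, 7 gave a two-sided exact permutation p of 0.1, the smallest that 3 against 3 libraries allow, and an adjusted p of 0.214, so none could pass 0.05.

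Likeness of pattern over the 9 libraries was measured as the root mean square difference in log2 CPM after each gene was centred on its mean, among 9194 genes of at least 10 CPM. As a description, CDK1 was nearest to CCNB1 among the 10 (0.0494), and only 6 of the other genes lay nearer to CDK1. CDK2 was nearest to CCNA2 (0.0555), with 28 genes nearer to CDK2, and CDK6 was also nearest to CCNA2 (0.0683). CCNB2 had CCNB1 as its nearest (0.129), but 1532 other genes were nearer, and for CCND3, whose nearest was CCNE1, 5237 were. Over all candidates the nearest to CDK1 were CDC7, a kinase that starts DNA replication (0.0240), and RBMX, to CCNA2 APOBEC3C and IMPACT, and to CCNB1 PSMC6 and DPP3. TUBB4B and RNF149 were nearest to CCNB2, NOP56 and EIF3I to CDK2, RTCB and LYPLA2 to CDK4, and IPO7 and TNPO1 to CDK6. CNNM2 and KRT19 were nearest to CCND3, IFNGR2 and NTN1 to CCNE1, and TTK, a mitotic kinase (0.0731), and FAM217B to CCNE2. The 9 libraries share their group structure, so genes that differ between groups in like steps are close by this measure.

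Around these 10 genes, 49 others that act on CDKs and cyclins were tested. With YKL-5-124, 5 of them were called higher and 7 lower (background 11.9% and 9.93%), with samuraciclib 3 and 6 (8.17% and 9.55%), and between the inhibitors 0 and 1 (4.46% and 2.46%). At an adjusted p below 0.05 alone, 11 rose and 23 fell with YKL-5-124 (24.1% and 25.2% of all genes), and 10 rose and 16 fell with samuraciclib (21% and 23.1%). Their median log2 fold changes were -0.12 and -0.11.

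The CDK-activating kinase itself was not called. CDK7, the target of both compounds, was at -0.15 ± 0.058 with YKL-5-124 (adjusted p = 0.0352) and -0.05 ± 0.058 with samuraciclib (adjusted p = 0.526). CCNH, cyclin H, fell with YKL-5-124 (-0.26 ± 0.073, adjusted p = 0.00638) and was at -0.16 with samuraciclib (adjusted p = 0.0831). MNAT1, the assembly factor, was at -0.12 and -0.03, with adjusted p of 0.107 and 0.704. As these drugs act on the protein, the mRNA level is no check of the treatment.

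Among the other cyclins, CCND1, the D cyclin with 1489 CPM in DMSO, was at -0.05 ± 0.048 with YKL-5-124 and -0.09 ± 0.048 with samuraciclib (adjusted p = 0.395 and 0.158). CCND2, the remaining D cyclin, rose from 148 CPM in DMSO to 266 in samuraciclib (0.85 ± 0.046, adjusted p = 1.94e-10, called) and to 183 in YKL-5-124 (0.31 ± 0.046, not called), and was the 1 gene of the 49 called between the inhibitors (-0.54 ± 0.045, adjusted p = 2.87e-07). CCNA1, the germline A cyclin, was called lower with both, at -0.59 ± 0.093 and -0.52 ± 0.093. The latter call, with samuraciclib, was lost without DMSO library 3 (-0.49).

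Of the 7 CDK inhibitor genes, 4 were called higher with YKL-5-124 (background 11.9%) and 2 with samuraciclib (8.17%), and 0 were called lower with either (9.93% and 9.55%). At an adjusted p below 0.05 alone, 4 rose and 0 fell with YKL-5-124 (24.1% and 25.2% of all genes). With samuraciclib 3 rose and 2 fell (21% and 23.1%). CDKN1A, which encodes p21, was called higher with both, at 0.62 ± 0.071 and 0.61 ± 0.071, as was CDKN2B, which encodes p15, at 0.89 ± 0.13 and 0.74 ± 0.13. CDKN2C, for p18, was called with YKL-5-124 (0.63 ± 0.077) and rose less with samuraciclib (0.22 ± 0.079), a difference that passed 0.05 between the inhibitors (0.40 ± 0.076, adjusted p = 0.000877). CDKN1C, for p57, was called with YKL-5-124 (0.71 ± 0.25, adjusted p = 0.0256) at only 2.58 CPM, and the call was lost without DMSO library 1 or 2 or without YKL-5-124 library 3. The pair that fell with samuraciclib, named after their values were seen, were CDKN1B, for p27 (-0.21 ± 0.052, adjusted p = 0.00300), and CDKN2D, for p19 (-0.31 ± 0.12, adjusted p = 0.0428).

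**Figure D4:**
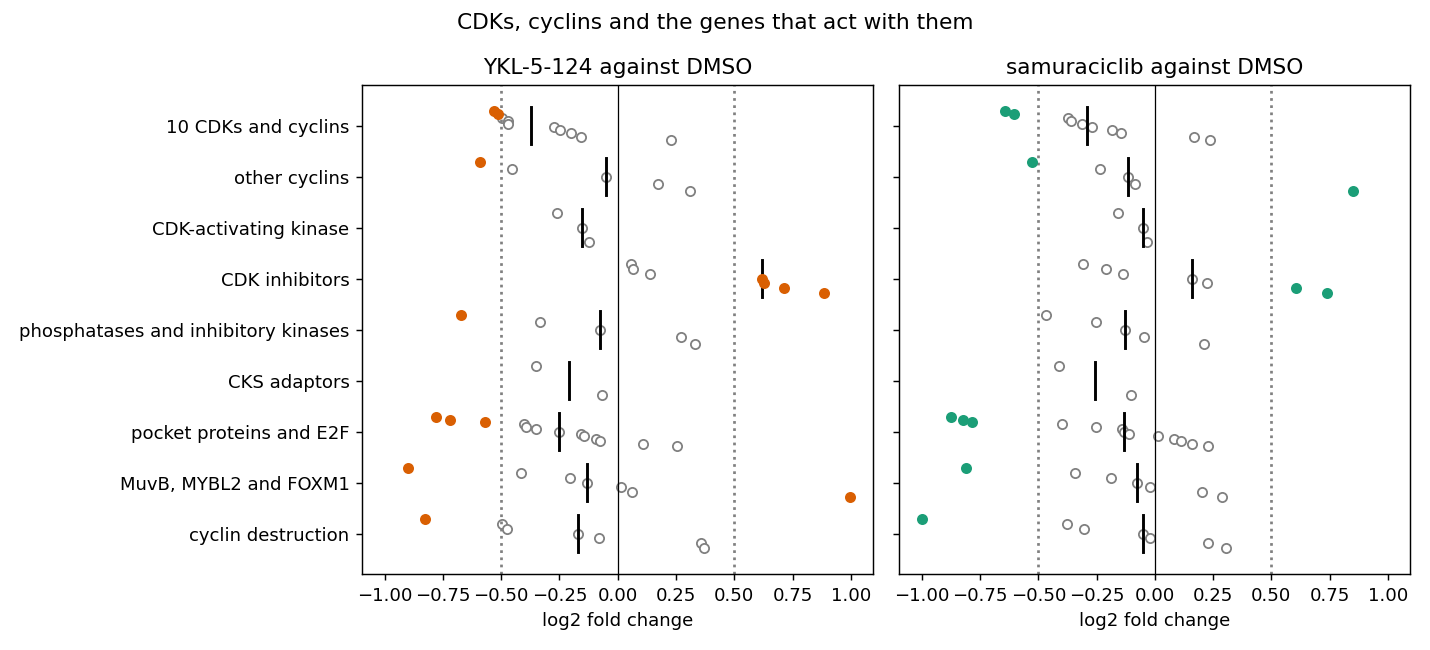
Log2 fold change against DMSO of the 10 CDKs and cyclins and of 49 genes that act with them, by role, for YKL-5-124 (left) and samuraciclib (right). Each point is 1 gene, filled points were called, black bars are medians and dotted lines mark 0.5; called CDK inhibitors lay to the right, and called pocket protein and E2F genes to the left.

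Pocket proteins and E2F factors control transcription at the entry to S phase, and MuvB, MYBL2 and FOXM1 act on late cell cycle genes. Among 13 pocket protein and E2F genes, 3 were called lower with each inhibitor (background 9.93% with YKL-5-124 and 9.55% with samuraciclib): RBL1, for the pocket protein p107 (-0.72 ± 0.057 with YKL-5-124 and -0.82 ± 0.057 with samuraciclib), E2F1 (-0.57 ± 0.049 and -0.78 ± 0.049) and E2F2 (-0.78 ± 0.10 and -0.87 ± 0.10). Others of the 13, named after their values were seen, moved the other way: RBL2, for the pocket protein p130, rose with both (0.25 ± 0.055 and 0.16 ± 0.055), and E2F3 rose with samuraciclib (0.23 ± 0.057) and fell with YKL-5-124 (-0.14 ± 0.057, adjusted p = 0.0470). Of the 7 MuvB, MYBL2 and FOXM1 genes, 1 was called lower with each (background 9.93% with YKL-5-124 and 9.55% with samuraciclib). MYBL2, the MYB protein that joins MuvB in S phase, was that gene, at -0.90 ± 0.048 and -0.81 ± 0.048. LIN37, a MuvB subunit, was called higher with YKL-5-124 (0.997 ± 0.30, adjusted p = 0.0110) at 1.504 CPM against 0.763 in DMSO, a call lost without DMSO library 3 or YKL-5-124 library 3. FOXM1, named after its values were seen, rose with samuraciclib (0.20 ± 0.045, adjusted p = 0.00121).

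Of 7 genes for cyclin destruction, CDC20, the activator of the anaphase-promoting complex that has B cyclins degraded, was the 1 called, lower with both (-0.83 ± 0.050 and -0.997 ± 0.050). At an adjusted p below 0.05 alone, 2 of the 7 rose and 4 fell with YKL-5-124 (24.1% and 25.2% of all genes). With samuraciclib 2 rose and 3 fell (21% and 23.1%). FZR1 (0.37 ± 0.070 and 0.31 ± 0.070) and SKP1 (0.36 ± 0.043 and 0.23 ± 0.043), named after their values were seen, rose with both. Among 5 phosphatases and inhibitory kinases of CDKs, PKMYT1, which phosphorylates CDK1 to hold it inactive, was called lower with YKL-5-124 (-0.67 ± 0.061) and fell without a call with samuraciclib (-0.46 ± 0.060). At an adjusted p below 0.05 alone, 2 of the 5 rose and 2 fell with YKL-5-124 (24.1% and 25.2% of all genes). With samuraciclib 1 rose and 1 fell (21% and 23.1%). Named after their values were seen, WEE1 rose with both (0.27 ± 0.075 and 0.21 ± 0.075) and CDC25B with YKL-5-124 (0.33 ± 0.049). Neither of the 2 CKS adaptors was called. Of all genes, 9.93% were called lower with YKL-5-124 and 9.55% with samuraciclib, and 21.8% and 17.7% in either direction.

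Some counts can be shared with neighbours, since the strand setting of the counting is not given in the sources used here. CDK2 lies wholly within the span of PMEL on the opposite strand, which had 29 to 58 counts per library against at least 1623 for CDK2. CDK4 overlaps TSPAN31 over part of its span (366 to 687 counts, against at least 2786). CCNA2 overlaps EXOSC9 over 7.7% of its span (693 to 1097 counts, against at least 1861). CCNE2 is the most exposed: it overlaps INTS8 over 11.7% of its span, and INTS8 had 1272 to 1949 counts where CCNE2 had as few as 209. Annotated processed pseudogenes of CDK4, CCNB2 and CCND3 had 0 or 1 counts in every library.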

How the data were processed

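RNA-seq of 9 FaDu libraries (3 of each group, grouped by the titles in the labels) was analysed from 1 table of counts. Per the submitters' processing notes, the authors aligned reads with HISAT2 to GRCh38 and counted them per gene with featureCounts 2.0.6, and the deposited values are unnormalized counts of 58929 genes; 25347 had no count in any library. The strand setting is not given in the sources used here. Library totals were 18096180 to 28018126, and precision is that of 3 libraries.

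Counts were kept by filterByExpr (16065 genes), scaled by the trimmed mean of M values (TMM) and fitted in edgeR 4.0.16 (R 4.3.3), with 1 quasi-likelihood fit of all groups and no covariates. The threshold was an adjusted p below 0.05 and, for calls, a log2 fold change beyond 0.5. FPKM is scaled CPM per kilobase of the deposited gene length. Ratios were tested by exact permutation. On simulated counts of all 16065 genes for YKL-5-124 against DMSO, 61.2% of 1.5-fold changes, 86.6% of 2-fold and 98.5% of 4-fold changes were called, with 4 false calls. For samuraciclib against DMSO these shares were 53.7%, 95.5% and 100%, with 6 false calls. Between the inhibitors they were 58.2%, 88.1% and 100%, with 8. Each simulation changed 66 or 67 genes per fold, far fewer than were called in the data. Motifs were searched on both strands.

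The 10 genes, the 49 others and the markers were chosen with earlier results of these data known. Text names all 10, the genes of the 49 called in at least 1 comparison, CCND1, CCND2, CDK7, CCNH and MNAT1 regardless, and the 2 nearest genes per pattern. No duplicated libraries were found: counts of any pair in a group differed by at least 3.20 times the chi-square expected from sampling per degree of freedom.

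Replicate numbers are shared between groups. Same-numbered libraries deviated together between samuraciclib and YKL-5-124 (correlations over 9204 genes of 0.24, 0.55 and 0.49). The numbers were taken as pairs there in an alternative fit only, and the direct comparison of the inhibitors was fitted without a block. Same-numbered libraries did not deviate together against DMSO, where same-numbered correlations ranged from -0.33 to 0.25 and the highest were between different numbers, DMSO library 3 with YKL-5-124 library 2 (0.46) and with samuraciclib library 2 (0.45). These 3 are the libraries low in 7SL RNA, so the pairing by number between the inhibitors holds the same 2 libraries as a pair. The pairing comes from this check and not from the labels. Alternatives covered scaling (RLE, library size alone, TMM without ribosomal protein genes), filters, DESeq2 1.42.0, the fold threshold (glmTreat), the groups in the fit, the replicate block, the libraries low in 7SL RNA and each library in turn.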

Additional observations from a re-analysis of the deposited data

Results flagged for a closer look

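The same contrast with DMSO gave different results for the 2 inhibitors in 6 of the 10 CDK and cyclin genes, by the direct test of YKL-5-124 against samuraciclib in the edgeR fit (adjusted p below 0.05, where 24.9% of all genes passed). The log2 difference, YKL-5-124 minus samuraciclib, was -0.16 for CDK2, -0.26 for CDK6, -0.16 for CCNA2, 0.17 for CCNB1, 0.17 for CCNB2 and -0.39 for CCNE1. CCNE1 is the 1 gene of these 6 whose fold changes against DMSO had opposite signs, 0.24 with samuraciclib and -0.16 with YKL-5-124, the latter not past the threshold. The direct test had no replicate block. With that block in an edgeR fit of the inhibitor libraries alone, CDK1 (adjusted p = 0.0337) and CDK4 (adjusted p = 0.0104) also passed 0.05. Among the 49 other genes, CCND2 differed by -0.54 and was higher in all 3 samuraciclib libraries than in any YKL-5-124 library. Groups of 3 libraries were not searched for single outlying values.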

How the results depend on the processing

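Of the members' fold changes recomputed under the alternatives, 565 kept their direction and side of the call, 29 were newly called (19 of them because adjusted p alone made the call), 12 lost the call and 4 changed sign. For the named genes among the 49 these numbers were 989, 9, 22 and 11. The 150 recomputed ratio differences moved by less than the SD between libraries. The number of neighbours in the level order that did not overlap stayed within 1.5 times in 10 alternatives.

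Against DMSO, the 2 members called with YKL-5-124 became 0 with library size alone, 0 with a mean count of at least 50, 0 with glmTreat, 5 without the libraries low in 7SL RNA and 0 to 4 with each library left out (1 without DMSO library 2, 0 without DMSO library 3 or YKL-5-124 library 3, 4 without YKL-5-124 library 2). Without the libraries low in 7SL RNA, 1691 of all 16111 genes tested were called higher with YKL-5-124 and 1566 lower. Without YKL-5-124 library 2 these numbers were 1843 and 1592 of 16400. With adjusted p alone, the counts for members, the 49 genes and all genes were 8, 34 and 7919 for YKL-5-124, 9, 26 and 7087 for samuraciclib, and 6, 17 and 4003 between the inhibitors. With glmTreat, YKL-5-124 had 6 of the 49 and 1458 of all genes, samuraciclib 1 member and 982 of all genes, and the inhibitors 0 of the 49 and 71 of all genes. Between the inhibitors, leaving out each library gave 1 to 2 of the 49.

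Sign changes were of uncalled values near 0. Library size alone gave 0.0774 for CCND1 and 0.00797 for MNAT1 with YKL-5-124, 0.0107 for CDK7 and 0.0277 for MNAT1 with samuraciclib, and 0.00671 for CCNE2 and 0.00318 for CCNA1 between the inhibitors. It raised the share of higher calls with YKL-5-124 from 54.5% to 72.7%, with samuraciclib from 46.1% to 57.1% and between the inhibitors from 64.5% to 79.5%. With each library left out, values with samuraciclib ran from -0.0876 to 0.00601 for CDK7, -0.0754 to 0.00950 for MNAT1 and -0.00954 to 0.309 for CDKN1C, and between the inhibitors from -0.0550 to 0.0691 for CDKN1A, -0.110 to 0.0213 for CCNE2 and -0.00509 to 0.117 for CCND3. The cause was not tested.

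The replicate block over all 9 libraries left 2, 2 and 0 members called for YKL-5-124, samuraciclib and the direct comparison, and changed no call of a member. The block fitted to the samuraciclib and YKL-5-124 libraries alone, chosen after seeing the data, gave 788 genes higher and 428 lower with YKL-5-124 against 717 and 395 without it, and 0 members called. CCNE2 had as few as 209 counts in a library.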
